A study of Mus musculus with 4 samples.

Results

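The ribosome biogenesis and RNA polymerase I genes described here were a named list of 36 genes, taken by gene name from the deposited expression table, which holds 23234 genes. The list was the ribosomal RNA precursor Rn45s and 35 protein-coding genes, and all 36 reached 1 FPKM in at least 1 library. FPKM is the number of sequenced fragments scaled to transcript length and to library size, so levels can be compared between genes of different length.

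The cells were mouse extensively self-renewing erythroblasts (ESREs), immature cells of the red lineage grown in long-term culture. The labels describe 4 groups of 1 sample each, and every sample carried a short hairpin RNA. Values of 3 groups were used: proliferating cells with a non-targeting hairpin (the proliferating control), proliferating cells with a hairpin against Setd8 (the knockdown), and cells with the non-targeting hairpin kept for 6 h in a medium that induces maturation (the maturing control). Setd8 monomethylates histone H4. Knockdown cells in maturation medium were not analysed here. The labels name 1 hairpin library per condition and do not say whether it came from 1 culture or several, and no difference below has a replicate check.

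Ribosomes are made in the nucleolus. RNA polymerase I copies the ribosomal DNA into a long precursor, small nucleolar RNPs guide its chemical modification, and assembly factors cut and fold it with ribosomal proteins into the small and the large subunit. Growing cells run this pathway at a high rate, and red cell precursors shut it down as they mature.

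The level of Setd8 was 25.1, 9.28 and 25.9 FPKM, and that of Gata2, a progenitor transcription factor, 54.9, 129 and 29.6 FPKM, in the order proliferating control, knockdown and maturing control, which is kept wherever 3 levels follow each other. Erythroid markers were present, with 12 of the 13 that had a row of their own at 1 FPKM or more in the proliferating control, 11 in the knockdown and 13 in the maturing control. Their summed level was 367, 327 and 503 FPKM in that order, with Rhag at 77.9, 119 and 56.2 FPKM. With the alpha and beta globin rows, which name 2 genes each, the sum was 2007, 871 and 3213 FPKM. The 15 erythroid rows had a median log2 ratio of FPKM + 1 of -0.80 in the knockdown and 0.51 in the maturing control. In the knockdown the authors' deposited table called both globin rows, Alas2 and Alad lower and none of the other erythroid rows. Alas2 was at 4.55, 0.0900 and 4.41 FPKM and Alad at 38.0, 12.9 and 83.5 FPKM. The summed level of 12 mast cell and basophil markers was 72.3, 500.4 and 39.0 FPKM. Of them, 6, 8 and 5 were at 1 FPKM or more, and none was at 0 in every library. Hdc made up most of this sum, at 42.5, 277 and 28.7 FPKM. In the knockdown, the authors' deposited table called Cma1, Tpsab1, Tpsb2, Mcpt4, Ms4a2, Hdc and Il1rl1 higher, where 9.05% of all tested genes were called. Ms4a2 was at 7.65, 99.3 and 2.42 FPKM and Tpsab1 at 0.565, 40.4 and 0.0662 FPKM. Gzmb, at 1.43, 0.00592 and 1.14 FPKM, was called lower in the knockdown by the authors' deposited table (q 1.86e-05). Cpa3 and Fcer1a were not called, and Mcpt8 and Prss34 were not tested. The sum of 10 megakaryocyte and platelet markers was 35.9, 77.9 and 14.5 FPKM, with Ppbp at 0 throughout. Granulocyte and monocyte markers summed to 4.82, 11.8 and 5.06 FPKM, with Elane and Lyz2 at 0 throughout. Lymphocyte markers summed to 0.118, 0.0747 and 0.118 FPKM, and those of fibroblasts, endothelium and liver to 0.0754, 2.42 and 0.148 FPKM. Of the latter, Trf was at 0.0364, 2.39 and 0.128 FPKM and was the 1 marker at 1 FPKM or more in the knockdown. Among very low genes, the value of 1 fragment gave the knockdown library 1.44 times and the maturing control library 1.55 times the depth of the proliferating control, and the absolute depth is unknown. In bulk RNA, fewer cells of a type and less RNA per cell cannot be told apart, and the part of these marker differences in the values below was not tested.

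In the knockdown, Rn45s had a higher value and 33 of the 35 coding genes had a lower value than in the proliferating control. In the maturing control, Rn45s was again higher and 33 of the 35 coding genes were lower. The coding genes differed by little: their median log2 ratio of FPKM + 1 was -0.32 in the knockdown and -0.26 in the maturing control, beside -0.05 and 0.01 over all 9611 genes at 1 FPKM or more in a library. A lower value was held by 55.6% of those genes in the knockdown and by 47.3% in the maturing control. Summed over the 35 genes, the level was 904 FPKM in proliferating control cells, and the knockdown held 702 FPKM (77.7% of it) and the maturing control 719 FPKM (79.5%). Both comparisons share the proliferating control library.

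None of the 36 genes was called changed in the authors' deposited table (adjusted p, or q, of at most 0.05) in either comparison. The table called 9.05% of tested genes in the knockdown (3.24% lower, 5.81% higher) and 1.75% in the maturing control (1.17% lower, 0.584% higher). At an unadjusted p under 0.05, Rn45s passed in the knockdown as the 1 gene of 36, where 14.7% of all tested genes passed, and 0 of 36 passed in the maturing control, where 4.90% did. The standard error of the authors' model, recovered from their statistic, had a median of 0.45 on the log2 scale over the 35 genes in the knockdown comparison and 0.45 in the maturation comparison. The log2 ratio was larger than its standard error for 12 of the 35 genes in the knockdown, beside 31.1% of all tested genes, and for 8 of the 35 in the maturing control, beside 18.0%. No gene of the 35 therefore stood apart from the proliferating control by the authors' test, and what follows for each of them is a description of 3 libraries.

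**Figure D1:**
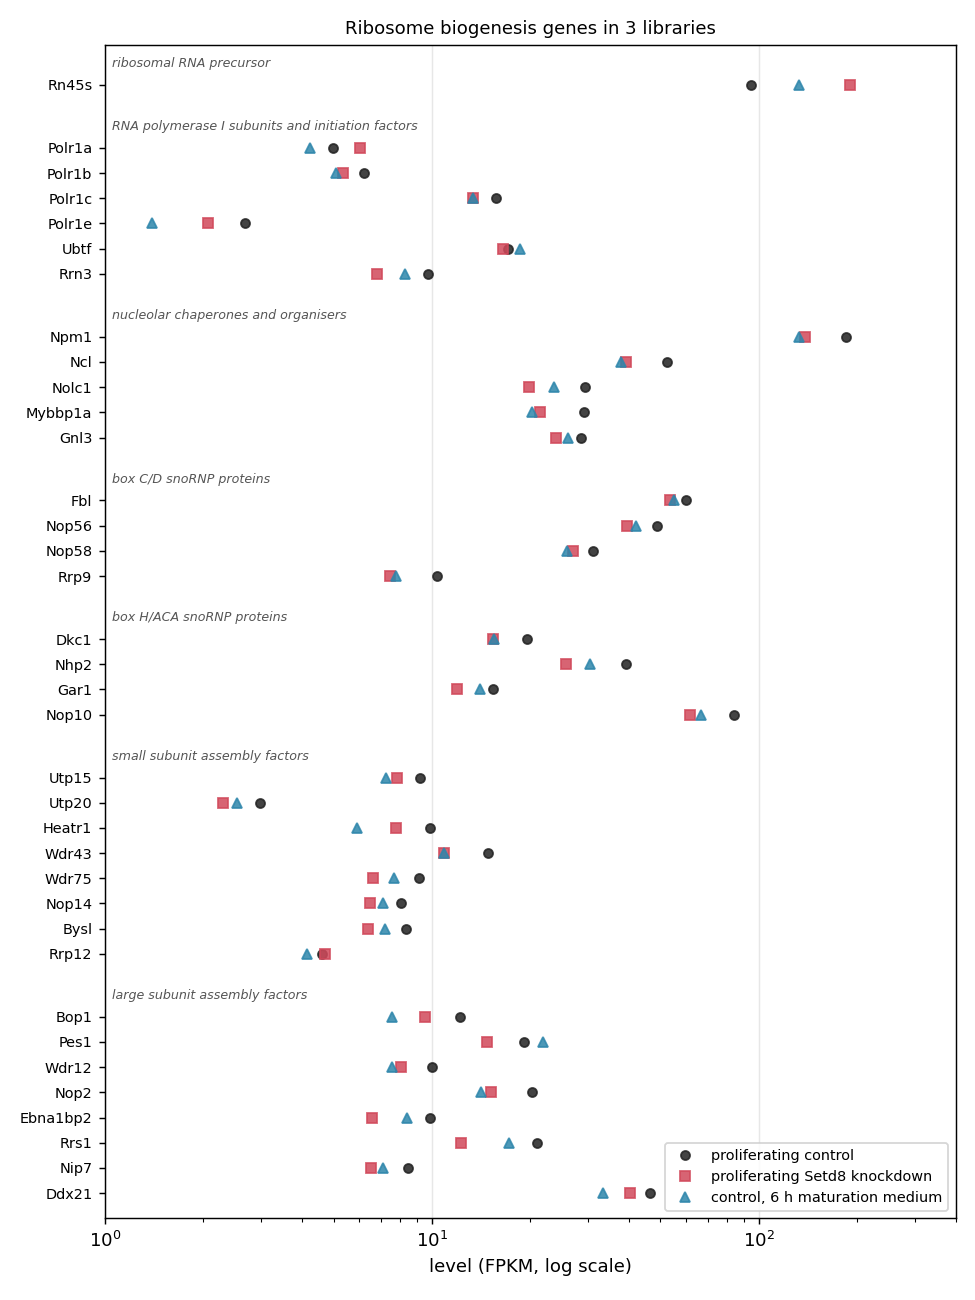
Level of the 36 genes (FPKM, logarithmic axis) in the proliferating control (circles), the Setd8 knockdown (squares) and the maturing control (triangles), 1 library each, grouped by role. Rn45s is lowest in the proliferating control, while most coding genes are highest there, from Polr1e at 2.69 FPKM to Npm1 at 185 FPKM.

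Promoter sequences were looked up because the coding genes differed in the same direction as a list. RefSeq's promoter table for GRCm38.p6, which gives 250 bases before and 50 after each start of transcription, held 30 of the 36 genes in 37 windows, with more than 1 window for Ubtf and Wdr12. The E-box CACGTG, the sequence bound by Myc and its partner Max, was present in 6 of the 30 (20.0%), against 12.8% of 6800 measured genes and 8.09% of 27025 genes in the promoter table. The Ets core CCGGAAG, searched on both strands, was present in 10 of the 30 (33.3%), against 23.6% of measured genes and 9.93% of all. Other ribosome lists held it as often or more often: 43.3% of 97 genes of a wider list of the pathway, 40.0% of 60 cytosolic and 35.8% of 67 mitochondrial ribosomal protein genes. The E-box was in 18.6%, 8.33% and 7.46% of these. Of the 13 Ets core matches in the listed genes, 12 (92.3%) began within 50 bases of the start, as did 58.7% of those in measured genes. CCAAT was in 11 of the 30 (36.7%, against 44.5% of measured genes), TATAAA in 2 (6.67%, against 7.90%), and AGATAA, a form of the GATA motif, in 0 of 30 (against 7.65%). Each motif was searched on both strands, and no E-box match overlapped an Ets core match in these genes. A match is a description of the letters and not of binding.

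The 100 bases before the start are shown for the 7 genes with an E-box or Ets core wholly inside them, 5′ to 3′ on the gene's strand, with the match in capitals. Nop2 is the gene that holds both motifs in this stretch. The match in Gar1 is the reverse complement of the Ets core.
Nop2 (chr6:125131783-125131882, plus strand): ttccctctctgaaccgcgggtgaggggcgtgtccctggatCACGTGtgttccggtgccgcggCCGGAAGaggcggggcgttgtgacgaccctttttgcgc
Rrn3 (chr16:13780599-13780698, plus strand): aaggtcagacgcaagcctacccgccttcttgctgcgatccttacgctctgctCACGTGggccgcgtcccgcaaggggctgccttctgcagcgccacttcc
Polr1c (chr17:46248046-46248145, minus strand): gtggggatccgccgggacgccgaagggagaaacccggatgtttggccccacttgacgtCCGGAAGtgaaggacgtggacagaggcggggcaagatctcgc
Nolc1 (chr19:46075747-46075846, plus strand): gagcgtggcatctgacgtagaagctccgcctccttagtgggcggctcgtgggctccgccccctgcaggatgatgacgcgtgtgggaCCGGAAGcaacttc
Nhp2 (chr11:51619673-51619772, plus strand): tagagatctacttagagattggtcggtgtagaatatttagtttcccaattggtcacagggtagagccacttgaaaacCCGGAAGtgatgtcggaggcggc
Gar1 (chr3:129831397-129831496, minus strand): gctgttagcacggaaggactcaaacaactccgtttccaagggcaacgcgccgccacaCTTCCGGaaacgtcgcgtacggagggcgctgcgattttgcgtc
Heatr1 (chr13:12395275-12395374, plus strand): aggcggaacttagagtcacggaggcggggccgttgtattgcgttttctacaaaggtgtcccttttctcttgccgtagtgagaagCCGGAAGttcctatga

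The 10 genes with an Ets core had a median log2 ratio of FPKM + 1 of -0.37 in the knockdown, and the 20 with a window but no match had -0.29. In the maturing control these medians were -0.27 and -0.25. For the E-box the medians were -0.40 with a match (6 genes) and -0.31 without (24 genes) in the knockdown, and -0.31 and -0.25 in the maturing control. The ranges overlapped each time: with an E-box the knockdown ratios ran from -0.46 to -0.27, and without one from -0.59 to 0.23. The difference between these medians was not tested.

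**Figure D2:**
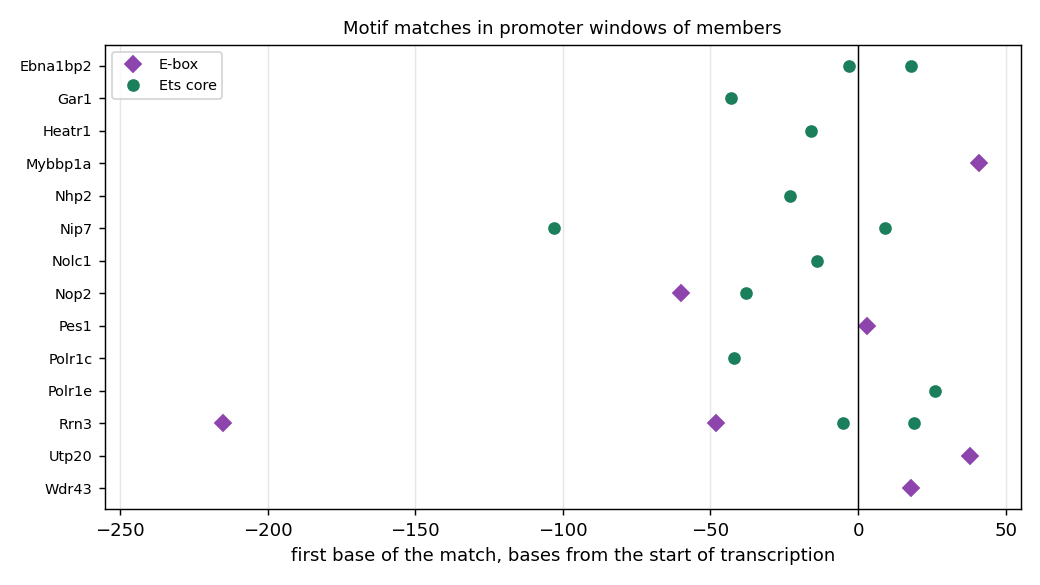
First base of each E-box (diamonds) and Ets core (circles) in the promoter windows of the 14 genes with either motif, in bases from the start of transcription. Of the 13 Ets core matches, 12 lie within 50 bases of the start, and the exception is at -103 in Nip7.

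Rn45s is the row for the precursor that RNA polymerase I makes. It lies on chromosome 17 from 39979941 to 39985774 (mm9, as deposited) and its level in the proliferating control was 95.0 FPKM, against 190.5 FPKM in knockdown cells and 133 FPKM in maturing cells. The knockdown level was 2.01 times and the maturing level 1.40 times that of the proliferating control, so the 3 libraries were ordered knockdown, maturing control, proliferating control. The authors' deposited table gave Rn45s a log2 ratio of 1.004 with a standard error of 0.36 and a q of 0.0734 (unadjusted p of 0.00585) for the knockdown, and 0.48 with a standard error of 0.37 and a q of 0.853 for maturation. Neighbouring levels did not differ by the authors' test: for the knockdown against the maturing control the log2 ratio in the authors' deposited table was 0.52 (q 0.767). The row spans 5833 bases, and its values do not separate the precursor from finished ribosomal RNA cut from it. The labels do not say how ribosomal RNA was removed from these libraries.

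Several other RNAs that lack a poly(A) tail or are mostly nuclear had higher values in the knockdown, and this set was chosen after values were seen. Of 60 measured rows of the clustered histone genes, whose mRNAs end without a poly(A) tail, 57 had a higher value in the knockdown and 46 in the maturing control. Their median log2 ratio of FPKM + 1 was 0.41 and 0.16. The 16 histone H2B rows had medians of 0.94 and 0.41, close to the log2 ratios of FPKM + 1 for Rn45s of 0.997 and 0.48, while the 11 histone H4 rows had 0.04 and -0.17. In the knockdown, H1 rows ran from 0.21 to 0.51, H2A rows from 0.33 to 0.87 and H3 rows from 0.11 to 0.25. Histone genes are near copies of each other and their rows share fragments. The short RNA Rn4.5s was at 11.0 FPKM in the proliferating control, 21.2 in the knockdown and 9.16 in the maturing control. The nuclear RNA Neat1 was at 145, 261 and 125 FPKM, and the nuclear RNA Malat1 at 6.45, 7.38 and 8.34 FPKM. Rpph1, the RNA of RNase P, was lower in both, at 0.927, 0.585 and 0.296 FPKM, while its copies Rprl1 and Rprl3 were at 4.80, 10.3 and 1.74 FPKM and at 2.75, 8.26 and 1.76 FPKM. Against the proliferating control, the authors' deposited table called none of the 57 histone rows it tested and none of these 6 RNAs, beside 9.05% of all tested genes in the knockdown and 1.75% in the maturing control. Between the knockdown and the maturing control, where 11.6% of tested genes were called, it called Rprl1 (q 0.00125), Rprl3 (q 0.00854) and Neat1 (q 0.0481), all higher in the knockdown, and none of the 57 histone rows. The part of library preparation in the Rn45s values was not tested.

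**Figure D3:**
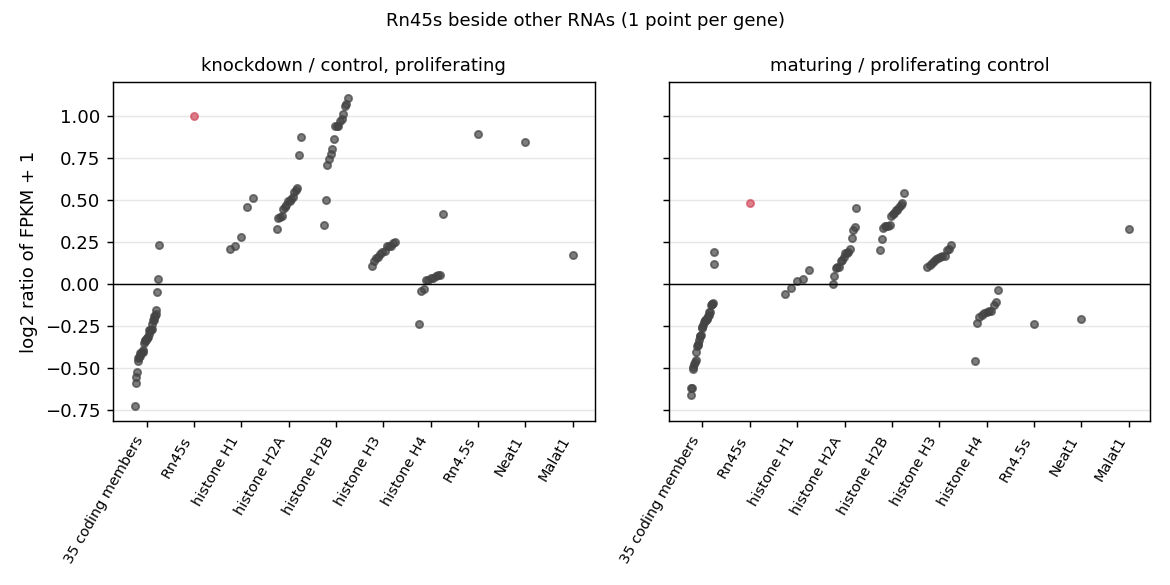
Log2 ratio of FPKM + 1, 1 point per gene, for the 35 coding genes, Rn45s, the measured histone rows by family, Rn4.5s, Neat1 and Malat1, in the knockdown (left) and in the maturing control (right) against the proliferating control. On the left Rn45s (0.997) lies near the H2B rows (median 0.94) and above all 35 coding genes, of which Polr1a is the nearest at 0.23. All rows of the other histone families lie below Rn45s there, with H3 rows from 0.11 to 0.25.

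Genes of the RNA polymerase I machinery had the median nearest to 0 of the 6 groups in the knockdown. Polr1a, which encodes the largest catalytic subunit, was at 4.98 FPKM in the proliferating control, 6.00 in the knockdown and 4.23 in the maturing control. It was highest in the knockdown and lowest in the maturing control, and the authors' deposited table gave log2 ratios of 0.27 ± 0.42 and -0.24 ± 0.43 (standard error of their model, here and for other genes). Polr1b, the second largest subunit, was at 6.19, 5.36 and 5.08 FPKM, and Polr1c, a subunit shared with RNA polymerase III, at 15.7, 13.4 and 13.3 FPKM. Both were highest in the proliferating control. Polr1e, a subunit of the initiation module, had the lowest level of the 35 genes in all 3 libraries, at 2.69, 2.06 and 1.39 FPKM. Its ratio in the maturing control was -0.62 on the log2 scale of FPKM + 1, after Heatr1 the lowest of the 35, and its q in the authors' deposited table was 0.538. Ubtf, which binds ribosomal DNA and opens it for the polymerase, was at 17.1, 16.5 and 18.6 FPKM. Rrn3, which brings the polymerase to the promoter, was at 9.69, 6.77 and 8.27 FPKM, lowest in the knockdown. The median ratio of these 6 genes was -0.20 in the knockdown and -0.21 in the maturing control.

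The abundant nucleolar chaperones and organisers were lower in both libraries. Npm1, the nucleolar chaperone nucleophosmin and the most abundant of the 35 mRNAs, was at 185 FPKM in the proliferating control, 139 in the knockdown and 133 in the maturing control. Ncl, the RNA-binding protein nucleolin, was at 52.4, 39.3 and 37.9 FPKM. Both had nearly the same level in the knockdown and in the maturing control, and lay above it in the proliferating control. In the authors' deposited table the log2 ratios for Npm1 were -0.41 ± 0.39 and -0.48 ± 0.39, and for Ncl -0.41 ± 0.37 and -0.47 ± 0.37. Nolc1, a shuttling chaperone of small nucleolar RNPs, was at 29.5, 19.8 and 23.6 FPKM and was lowest in the knockdown. Mybbp1a, a nucleolar Myb-binding protein, was at 29.2, 21.4 and 20.2 FPKM. Gnl3, the nucleolar GTPase nucleostemin, differed less, at 28.5, 24.0 and 26.1 FPKM. The 5 genes had a median of -0.41 in the knockdown and -0.46 in the maturing control. Npm1 has processed copies elsewhere in the genome, so its fragments may be split among them.

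Small nucleolar RNPs come in a box C/D class, which guides methylation, and a box H/ACA class, which guides pseudouridylation. In the first, the methyltransferase Fbl (fibrillarin) was at 59.9, 53.5 and 55.2 FPKM, and its scaffold partners Nop56 and Nop58 at 48.9, 39.6 and 42.0 FPKM and at 31.1, 27.1 and 25.8 FPKM. Fbl differed least of the class in both comparisons. Rrp9, which binds the U3 RNP, was at 10.3, 7.42 and 7.76 FPKM. In the second class, the pseudouridine synthase Dkc1 (dyskerin) was at 19.5, 15.4 and 15.5 FPKM. Its partner Nhp2 was at 39.3, 25.7 and 30.4 FPKM, with a log2 ratio of -0.61 ± 0.53 in the authors' deposited table for the knockdown. Gar1 was at 15.4, 11.9 and 14.1 FPKM and Nop10 at 84.1, 61.6 and 66.6 FPKM. All 8 genes had their highest level in the proliferating control. Nop10 had the highest level of the box H/ACA genes in each library. Medians were -0.25 and -0.24 for the box C/D genes and -0.39 and -0.32 for the box H/ACA genes, in the knockdown and the maturing control.

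Several of these genes host small nucleolar RNAs in their introns. By RefSeq's GRCm38.p6 annotation, 6 of the 36 genes hold 18 such RNAs, of which 10 had a row in the table. Of the 10, 7 were listed at 0 in all 3 libraries. Snora75, in Ncl, was listed at 0 in the proliferating control and stood at 3.59 and 1.68 FPKM in the knockdown and the maturing control. Snord53, in Wdr43, was at 11.5 FPKM in the knockdown and listed at 0 in the others, and Snord11, in Nop58, was at 21.1 FPKM in the proliferating control and listed at 0 in the others. RNAs of this length rest on very few fragments, and no fold is given.

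Assembly factors of the small subunit had small differences. Utp15 was at 9.21, 7.80 and 7.22 FPKM, Heatr1 at 9.88, 7.75 and 5.89 FPKM, and Wdr43 at 14.8, 10.9 and 10.9 FPKM, all of them parts of the complex that couples transcription of the precursor to its first cuts. Heatr1 had the lowest ratio of FPKM + 1 of the 35 genes in the maturing control, -0.66, and the authors' deposited table gave it -0.75 ± 0.41 on the log2 scale (q 0.479). Wdr75, of the same complex, was at 9.11, 6.62 and 7.66 FPKM, and the large scaffold protein Utp20 at 2.98, 2.29 and 2.54 FPKM. Nop14, another processome subunit, was at 8.07, 6.48 and 7.07 FPKM, and Bysl (bystin), which acts late in the maturation of this subunit, at 8.33, 6.38 and 7.19 FPKM. Rrp12, an export factor, was at 4.596, 4.70 and 4.14 FPKM, so 2 of the libraries were nearly equal. The median ratio of the 8 genes was -0.30 in the knockdown and -0.21 in the maturing control.

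Among large subunit factors, Rrs1 had the lowest ratio of FPKM + 1 of the 35 genes in the knockdown, -0.73. Rrs1, which helps to dock the 5S RNP on the early large subunit, lies on chromosome 1 from 9535488 to 9537536 and was at 20.9 FPKM in the proliferating control, 12.3 in the knockdown and 17.2 in the maturing control. The knockdown level was 58.5% of the control, and the authors' deposited table gave -0.77 ± 0.44 on the log2 scale (q 0.518). Ebna1bp2, whose protein is found with Rrs1 in early large subunit particles, was at 9.86, 6.55 and 8.37 FPKM, again lowest in the knockdown. Pes1, Bop1 and Wdr12 form 1 complex, named PeBoW from their initials, and stood at 77.3%, 78.4% and 80.9% of the proliferating control level in the knockdown. Bop1 was at 12.1, 9.52 and 7.56 FPKM and Wdr12 at 9.98, 8.07 and 7.54 FPKM. Pes1 was at 19.1, 14.7 and 21.9 FPKM, highest in the maturing control, with log2 ratios of -0.37 ± 0.41 and 0.20 ± 0.40 in the authors' deposited table. The RNA methyltransferase Nop2 was at 20.3, 15.2 and 14.1 FPKM, Nip7 at 8.47, 6.52 and 7.08 FPKM, and the RNA helicase Ddx21 at 46.4, 40.5 and 33.3 FPKM. The median of the 8 genes was -0.34 in the knockdown and -0.31 in the maturing control.

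**Figure D4:**
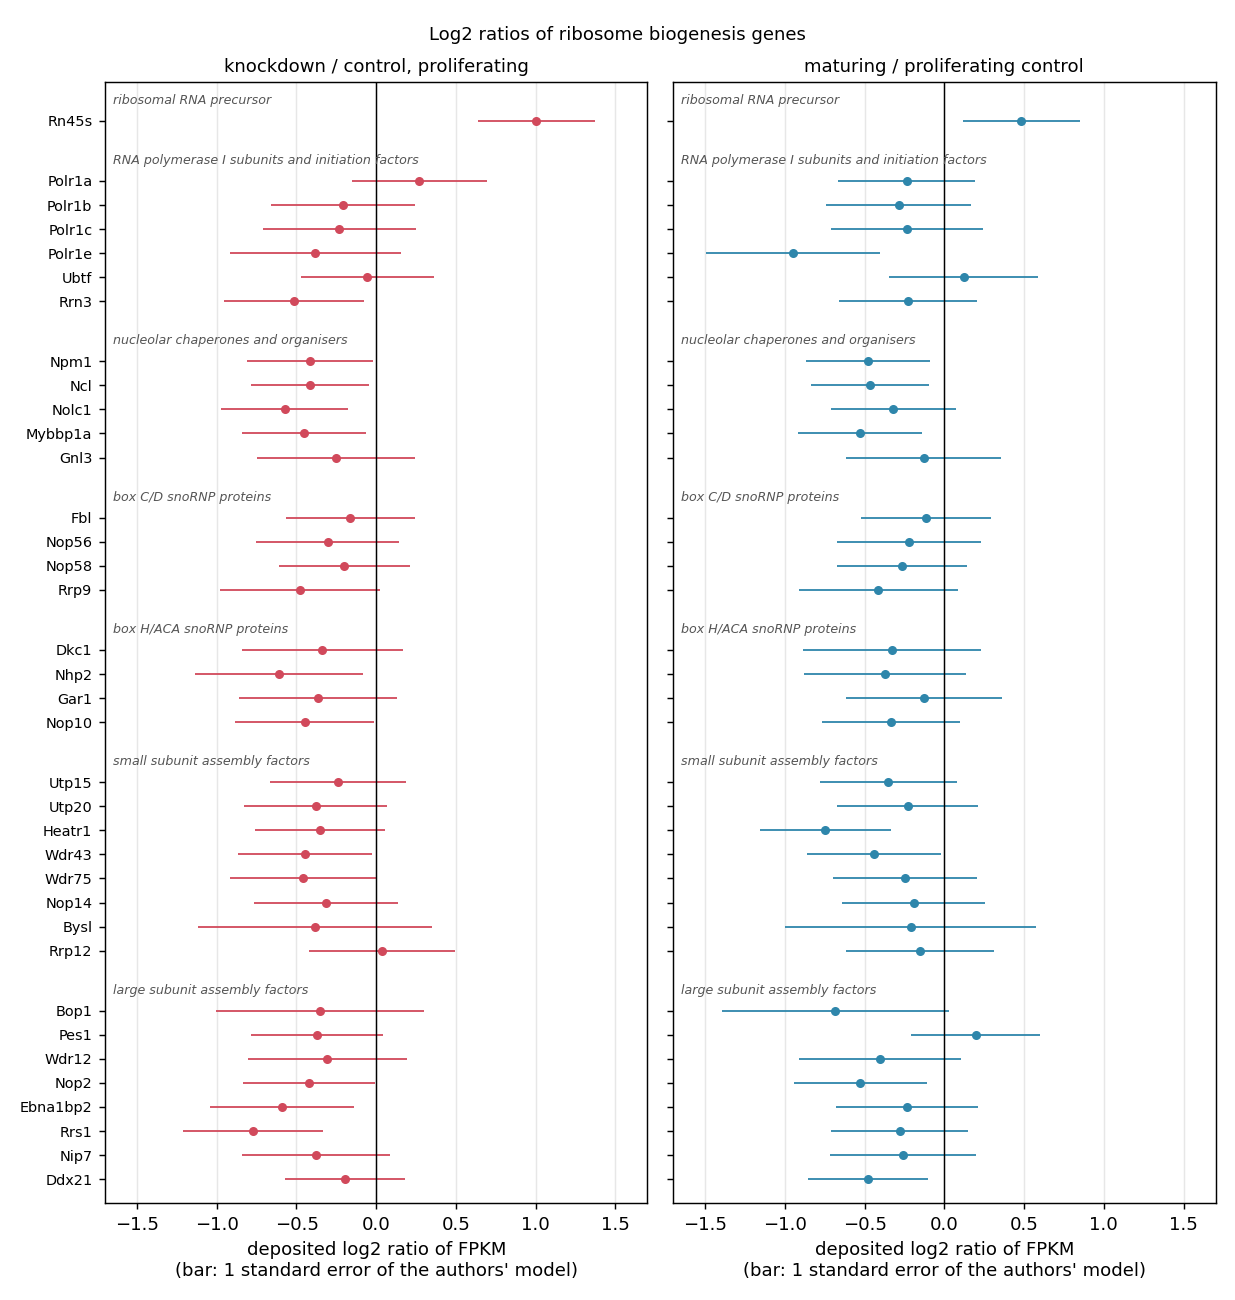
Deposited log2 ratio of FPKM for the 36 genes in the knockdown (left) and the maturing control (right) against the proliferating control, with bars of 1 standard error of the authors' model. Rn45s at 1.004 and Rrs1 at -0.77 mark the ends on the left, and Polr1e at -0.95 is the lowest on the right, where Rn45s is at 0.48.

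The order of levels among the 35 genes was much the same in all 3 libraries. Npm1, Nop10 and Fbl held the first 3 places in each, and Rrp12, Utp20 and Polr1e the last 3. The place of 25 genes moved by 3 or less, and Heatr1 and Ebna1bp2 moved most, by 7. Across the 35 genes Spearman's rho between the level in the proliferating control and the log2 ratio of FPKM + 1 was -0.30 in the knockdown and -0.21 in the maturing control. The level enters the ratio, so this is a description only.

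By size, 4 of the 35 genes had a log2 ratio of FPKM + 1 of -0.5 or lower in the knockdown: Rrs1, Nhp2, Nolc1 and Ebna1bp2. None was at 0.5 or higher. Over all measured genes, 8.81% were at -0.5 or lower. In the maturing control the 4 were Heatr1, Polr1e, Bop1 and Mybbp1a, with none at 0.5 or higher, beside 4.74% of all measured genes at -0.5 or lower. With a pseudocount of 5 these counts were 2 and 0. The coding genes with a value that was not lower were Polr1a and Rrp12 in the knockdown, joined by Ubtf when ratios were centred on abundant genes, and Ubtf and Pes1 in the maturing control under each scaling.

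The knockdown and the maturing control were also compared with each other in the deposited table. That comparison held 19067 genes, beside 23234 in each of the others. It had rows for 30 of the 36 genes and lacked Ubtf, Utp15, Utp20, Wdr12, Wdr43 and Wdr75. These names fall late in the alphabet and the deposited table ends at 65535 rows, so this comparison may be incomplete. Its shares cover only the genes with a row in it. None of the 30 was called, beside 11.6% of all genes tested in it (4.38% lower, 7.22% higher). From the FPKM values, the median log2 ratio of FPKM + 1 of the 35 coding genes, knockdown against maturing control, was -0.04, with 20 lower and 15 higher, beside 57.0% lower over all measured genes and 59.0% over those at 5 FPKM or more in every library. Pes1 had the lowest value, -0.54, and Polr1a the highest, 0.42. Dkc1 was at -0.01, with nearly equal levels in both libraries. The share of lower values among the coding genes (20 of 35) was close to that of all measured genes.

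By the GRCm38.p6 annotation, 10 of the coding genes overlap another coding gene, and the labels do not say whether strand was used in counting. Bysl overlaps Ccnd3, which was at 37.4, 36.8 and 55.3 FPKM, above Bysl in every library. Dkc1 overlaps Mpp1, at 19.8, 7.45 and 23.0 FPKM, and Nop56 overlaps Idh3b, at 20.4, 17.5 and 21.2 FPKM. Bop1 overlaps Mroh1, listed as Heatr7a, at 9.13, 7.35 and 9.63 FPKM. The standard errors of Bysl (0.74) and Bop1 (0.65) were the largest of the 35 in the knockdown comparison. Fragments in the shared stretches cannot be assigned with certainty.

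A wider list of 124 other genes of the pathway, 122 of which had a row and 121 of which were measured, was lower in most of its members in both libraries. Its median log2 ratio of FPKM + 1 was -0.28 in the knockdown and -0.14 in maturing cells, and a lower value was found for 113 of 121 genes and by 89 of 121. The authors' deposited table called none of them in either comparison, where 9.05% and 1.75% of tested genes were called. At an unadjusted p under 0.05, 1 passed in each, Gtpbp4 in the knockdown and Riok2 in the maturing control. In the knockdown the 3 lowest were large subunit factors: the GTPase Gtpbp4 (15.5 and 8.53 FPKM), Mrto4 (20.3 and 12.4 FPKM) and Mak16 (17.0 and 10.5 FPKM, with no result in the authors' test). The 3 highest were the kinase Riok2, of late small subunit maturation (14.3 and 22.5 FPKM), and Taf1b and Taf1d, of the RNA polymerase I promoter complex (1.81 and 2.83, and 11.2 and 13.6 FPKM). In the maturing control Riok2 was the lowest, at 6.23 FPKM with a q of 0.0774 in the authors' deposited table, followed by Nop16 (16.7 and 10.6 FPKM) and Taf1d (7.54 FPKM). The highest there were Rrp1 (53.7 and 75.3 FPKM), Taf1c (log2 ratio of FPKM + 1 of 0.33) and Bms1 (10.4 and 12.9 FPKM). Between the knockdown and the maturing control, 97 genes of the wider list were tested in the authors' deposited table. It called 1 of them, Riok2 (log2 ratio 1.85, q 0.000517), beside 11.6% of all tested genes.

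By branch of the wider list, medians in the knockdown were -0.31 for 44 large subunit genes, -0.31 for 41 small subunit genes, -0.31 for 13 genes of the RNA exosome, which trims the precursor, -0.23 for 10 genes of snoRNP assembly and -0.20 for 13 genes of RNA polymerase I and its cofactors. In the maturing control they were -0.18, -0.16, -0.04, -0.14 and -0.04. All 13 exosome genes were lower in the knockdown and 8 of 13 in the maturing control. Both comparisons share the proliferating control library, and the difference between the comparisons was not tested.

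Ribosomal protein genes, the other large part of ribosome production, differed less. For 78 measured cytosolic ribosomal protein genes the median log2 ratio of FPKM + 1 was -0.10 in the knockdown and -0.12 in the maturing control, with 67 and 74 lower. For 76 mitochondrial ribosomal protein genes it was -0.25 and -0.02, with 67 and 43 lower. The mitochondrial median in the knockdown was close to that of the box C/D genes (-0.25). In the maturing control 94.9% of the cytosolic list was lower, beside 94.3% of the 35 coding genes. None of either list was called in the authors' deposited table, beside 9.05% and 1.75% of all tested genes. Genes at 5 FPKM or more in every library, 4364 in all, had medians of -0.09 and -0.01, with 61.6% and 52.3% lower.

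**Figure D5:**
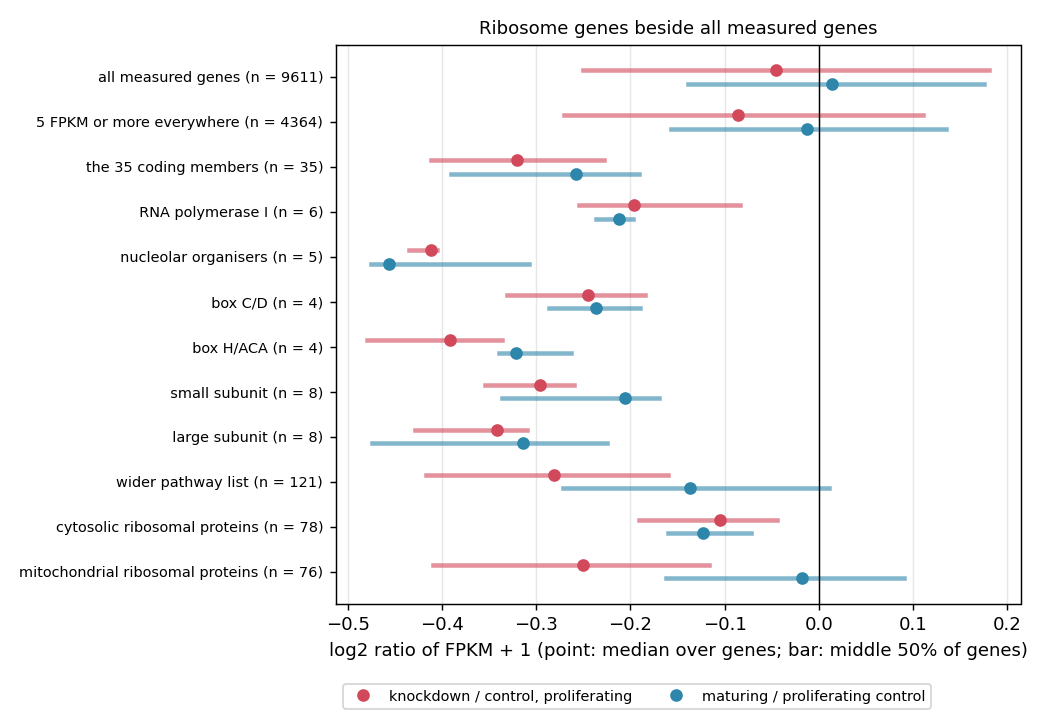
Median (point) and middle 50% of genes (bar) of the log2 ratio of FPKM + 1 for all measured genes, the 35 coding genes and their groups, the wider list and ribosomal protein genes, in the knockdown (red) and the maturing control (blue). All 6 groups of the 35 genes have both medians below those of all measured genes (-0.05 and 0.01).

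Regulators of ribosome production were also read from a list. Myc, which drives many of these genes in growing cells, was at 45.5 FPKM in the proliferating control, 28.4 in the knockdown and 28.6 in the maturing control. It was highest in the proliferating control and nearly equal in the other 2 libraries, and the authors' deposited table did not call it (log2 ratios of -0.68 and -0.67, q of 0.604 and 0.599). Of the proteins that compete with Myc for its partner Max, Mxd4 was at 4.48, 7.97 and 5.82 FPKM, Mxd3 at 0.803, 1.71 and 1.68 FPKM, Mxi1 at 5.31, 6.96 and 4.14 FPKM, and Mxd1 at 15.8, 14.8 and 8.04 FPKM. Maf1, a repressor of RNA polymerase III, was at 7.16, 7.97 and 10.7 FPKM, and Kdm2b, a histone demethylase, at 11.0, 6.17 and 10.7 FPKM. Of the 18 measured regulators, 1 was called in the knockdown and none in the maturing control, by the authors' deposited table, where 9.05% and 1.75% of all tested genes were called. Cdkn2a, whose Arf product restrains ribosomal RNA synthesis, fell from 3.21 FPKM to 0.320 FPKM in the knockdown, with a q of 7.79e-05 in the authors' deposited table, and was at 2.36 FPKM in the maturing control. That row does not separate Arf from the other product of the gene. The 18 had medians of -0.12 and -0.02, with 10 lower in each comparison.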

How the data were processed

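RNA-seq values came from 1 deposited Cuffdiff table of 65535 rows that holds 3 comparisons. Level values in it are FPKM, computed by the authors. The unit was inferred from the deposited column layout and tool. The submitters' processing notes name the mm9 genome, FastQC 0.10.1, Cuffdiff and Cufflinks 2.0.2. No source used here gives the aligner, the gene annotation, ribosomal RNA removal or the use of strand. The log2 ratios, statistics, p-values and q-values are the authors' deposited ones, and a gene is called at a q of at most 0.05. The standard error is the deposited log2 ratio divided by the deposited statistic. The comparison of the knockdown with the maturing control held 19067 genes, beside 23234 in each of the others.

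From the FPKM, log2 ratios were computed with a pseudocount of 1, which lessens the ratio of low genes. Measured genes reach 1 FPKM in at least 1 of 3 libraries. With 1 library per group no test was made, and no count model was used. Read totals are unknown, and no counting interval can be given. Samples were grouped by their labels. The knockdown library's name in the deposited values differs in its prefix from its sample title, and the match by target and number was inferred. The members, the gene lists (wider pathway, regulators, ribosomal proteins, cell type markers) and the alternatives were chosen with earlier results of these data known. All 36 members are named. From the wider list and the regulators, called genes are named, with Myc in any case. The 3 highest and 3 lowest ratios in each comparison with the proliferating control are named too. Setd8 and Gata2 check the labels. RefSeq promoters (GRCm38.p6) were matched by symbol. Scripts used Python 3.11.15, pandas 2.3.3, numpy 2.4.6 and scipy 1.17.1 and were tested on simulated data. Alternatives changed the pseudocount, the filter, the scaling, the summary, the size and the threshold.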

Additional observations from a re-analysis of the deposited data

How the results depend on the processing

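Among summary values, 68 alternatives stayed within their limits (a count within 1.5 times, a median or ratio within 0.1 on the log2 scale or the authors' standard error), and none reversed a direction. Some of the 68 could not have moved. All 35 coding genes are measured, so dropping the filter left their values as they were. With 0 members called, a stricter threshold can only return 0. The median log2 ratio of the 35 coding genes ranged from -0.37 to -0.24 in the knockdown and from -0.29 to -0.22 in the maturing control. For Rn45s the log2 ratio ranged from 0.97 to 1.08 and from 0.46 to 0.49. The count of coding genes past 0.5 in size was less stable. In the knockdown it was 4, and became 2 with a pseudocount of 5, 2 with ratios centred on genes at 5 FPKM or more in every library, and 0 with a size of 1. In the maturing control it was 4, and became 0 with a pseudocount of 5 and 0 with a size of 1. A larger pseudocount or size lowers such a count by construction. The count of members called in the authors' deposited table for the knockdown was 0 at a q of 0.05 and 1, Rn45s, at an unadjusted p under 0.05. For the single members, all 420 alternatives stayed within the authors' standard error. This limit is wide: the log2 ratio exceeded it for 12 of the 35 genes in the knockdown and 8 in the maturing control. Staying within it leaves the direction unchecked, and Ubtf was not lower in the knockdown once ratios were centred on abundant genes. No paired analysis was possible because each group has 1 library and the labels give no replicate numbers. For the same reason no replicate could be left out. Depth is known only relative to the proliferating control.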
